A study of Equus caballus with 20 samples.

Results

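The genes described here build the extracellular matrix of muscle: collagen chains, laminin chains, and a set of matrix proteoglycans and glycoproteins. They were taken by gene symbol from the annotation of an oligonucleotide array, whatever their measured values, with Lama2 left out. The array held 79 such probes of 24493, for 67 of 12018 genes with a symbol, and 40 of these genes had enough values to be tested. Muscle RNA came from 5 French Trotters affected by RER (recurrent exertional rhabdomyolysis), an exercise-related muscle breakdown with high muscle enzyme activity in plasma. The reference was a pool of RNA from 10 control horses, made separately for each muscle. Biopsies were taken from gluteus medius (the large hip extensor) and longissimus lumborum (the long back muscle) of the same RER horses. Each of the 10 RER biopsies was hybridised with its control pool on 2 arrays with the dyes exchanged, 20 arrays in all. No age, sex, treatment or time since an episode was given for any horse in the sources used here.

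Fibrillar collagens, above all types I and III, form the rope-like fibres of the connective tissue sheaths around muscle fibres and their bundles. The basement membrane is a thin sheet on each muscle fibre, built from type IV collagen and laminins that nidogen and perlecan hold together. Fibroblasts and fibro-adipogenic progenitors make most of the fibrillar matrix, and its build-up is the hallmark of muscle fibrosis after repeated injury.

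Every value is a log2 ratio of the RER sample to the control pool of its muscle, so a value of 1 is 2-fold. The labels do not state which channel was divided by which. RER over pool is the likely reading, since the RER sample is the first channel throughout. The dye pattern matched the labelled dye on 20 of 20 arrays. It would match equally if all ratios were pool over RER, so it cannot decide the direction. The reading is not settled, also because arrays of the same dye against the same pool correlated as low as -0.341 over all probes. If all ratios ran the other way, the sizes would stay and every count of genes above 0 would change places with its count below 0. A pool has no spread, so each test measures how RER horses vary around 1 pooled value and leaves out the variation among control horses. Ratios hold no level, so the muscle identity of the biopsies could not be checked by marker levels, and genes are not compared in abundance.

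Some arrays stood apart from their labels. The 2 arrays of a pair correlated below 0 in 4 of 10 pairs: gluteus of horse 2 (r = -0.206) and horse 3 (-0.268), and longissimus of horse 1 (-0.269) and horse 2 (-0.322). In gluteus, the Cy3 array of horse 2 correlated instead with the Cy5 array of horse 3 (0.261 over all probes, 0.566 over the matrix probes). The Cy5 array of horse 2 likewise correlated with the Cy3 array of horse 3 (0.129 and 0.279). The labelled pairing was kept, and the means of the genes that were extreme in gluteus of horses 2 and 3 are also given without them. The arrays also split by the number of measured probes into 10 dense ones (gluteus of horses 1, 2 and 3, longissimus of horses 1 and 2) and 10 sparse ones. The dense arrays had 22032 to 24050 values each and the sparse ones 8966 to 17708. Longissimus of horse 4 was the widest sample, with 7.16% of all its features above 1 and 10.4% below -1.

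No matrix gene passed the test of RER muscle against the control pool across all features. In gluteus the test called 0 of 40 matrix genes at an adjusted p under 0.05, with a background of 0% over 10176 features (limma, Benjamini-Hochberg; smallest adjusted p = 1). The same held in longissimus, with 0 of 40 genes and a background of 0% (smallest adjusted p = 0.827, limma). At an unadjusted p under 0.05, 1 of 40 passed in gluteus against a background of 1.84%, and 2 of 40 passed in longissimus against 4.19%. Of the 40 genes, 17 lay above and 23 below the pool in gluteus, with a median of -0.019, against a median of -0.0096 over all features. In longissimus 21 lay above and 19 below, with a median of 0.0078 against -0.0032. The 95% interval lay within 2-fold of the pool for 36 of 40 genes in each muscle, in a fit that shares 1 variance per gene between the muscles and moderates it over all features. From each gene's own spread in 1 muscle, without moderation, 31 of 40 intervals lay within 2-fold in gluteus and 34 of 40 in longissimus. In gluteus the intervals of Col1a2, Lum, Sparc and Thbs3 reached past 2-fold in both versions, and those of Col1a1, Col5a1, Col8a2, Thbs4 and Vcan only in the version with their own spread. In longissimus Lama5 and Thbs3 did so in both versions, Col1a2 and Sparc only with the shared variance, and Col20a1, Col4a6, Col5a3 and Fbn1 only with their own spread.

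**Figure D1:**
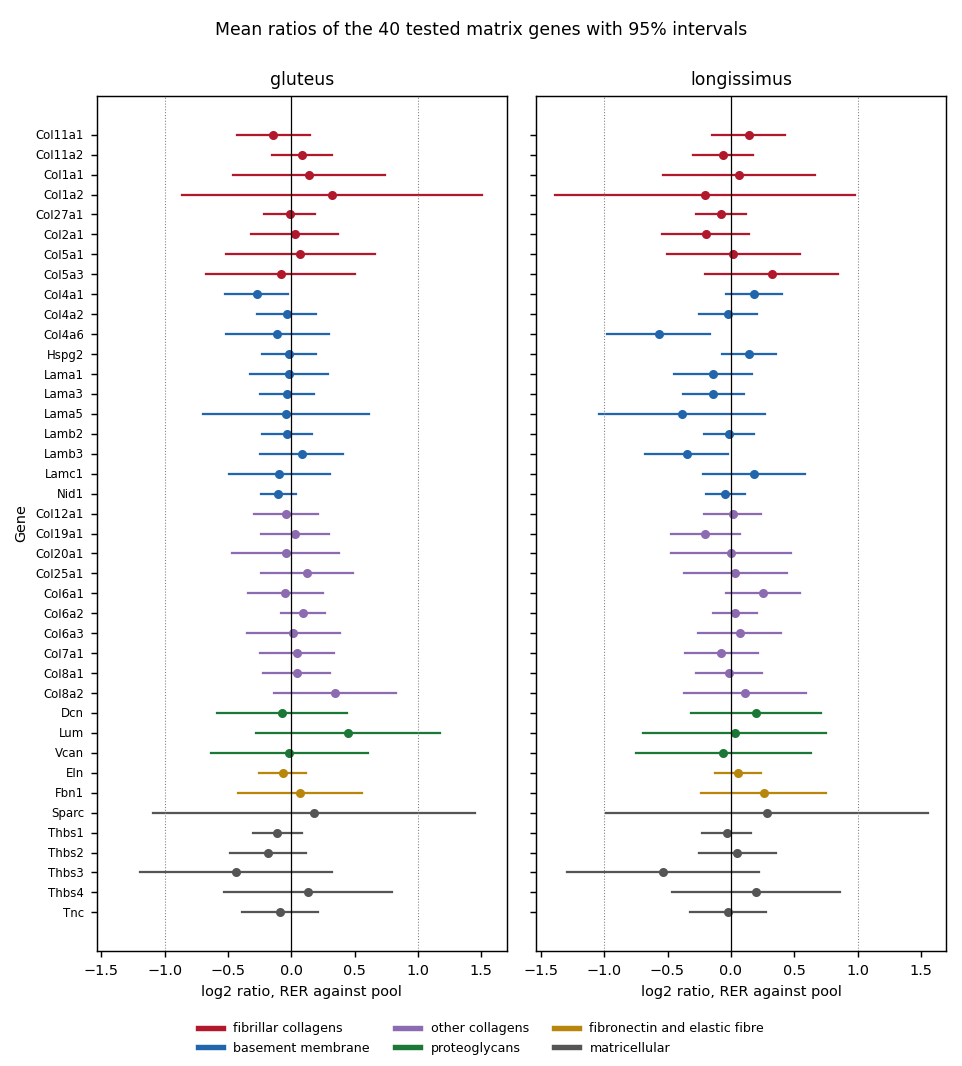
Mean log2 ratio of RER over control pool (points) with 95% intervals (lines, from the variance shared by both muscles) for the 40 tested matrix genes, 1 gene per line, gluteus on the left and longissimus on the right. Dotted lines mark 2-fold; most intervals lie between them and cross 0, and Sparc and Col1a2 have the widest ones.

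The type I and type III collagen chains and Col5a1 split the RER horses widely in gluteus. The other tested fibrillar chains spread less there, but Col5a3 and Col11a2 had no value in gluteus of horse 4. Of 13 fibrillar symbols 8 were tested, and 5 were above and 3 below the pool in gluteus, with a median of 0.048, which was -0.081 on dense arrays only and -0.082 without horse 4. In longissimus 4 were above and 4 below, with a median of -0.021. Col1a2, the alpha 2 chain of type I collagen, had gluteus ratios of -0.26, -1.35, -0.67, 3.63 and 0.24 in horses 1 to 5. Only horse 4 was far above the pool, and horse 2 was the furthest below it. The gluteus mean was 0.32, with an SD of 1.94 between 5 horses (adjusted p = 1, limma). In longissimus Col1a2 had ratios of -0.54, 0.20, -0.34, -0.29 and -0.043, with no horse past 2-fold. Its longissimus mean of -0.20 ± 0.29 (SD, n = 5) had an adjusted p of 0.95 (limma).

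Col1a1, the other chain of type I collagen, had gluteus ratios of -0.13, -0.67, -0.43, 1.71 and 0.19. Again horse 4 stood highest and horses 2 and 3 lowest. In gluteus the mean was 0.14 ± 0.94 (SD, n = 5) and limma gave an adjusted p of 1. Its longissimus ratios were -0.26, 0.013, 0.44, -0.13 and 0.24, so horse 4 was not high there. Col5a1, a chain of the type V collagen that sets fibril width, had gluteus ratios of -0.12, -0.64, -0.34 and 1.38 in horses 1 to 4, and no value in horse 5. The order of the horses was that of Col1a1. The gluteus mean was 0.070, with an SD of 0.90 between 4 horses (adjusted p = 1, limma). In longissimus Col5a1 lay between -0.27 and 0.22.

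Col3a1, the chain of type III collagen, had too few longissimus values for the test. Its gluteus ratios were 0.36, -1.49, -1.36, 3.66 and 0.84 in horses 1 to 5. The same 3 horses were extreme as for Col1a2, and horse 5 was next highest. In longissimus it was measured in horses 1 and 2 only, at 0.65 and -0.23.

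The other tested fibrillar chains spread less in gluteus. Col5a3 and Col11a2 had no value in gluteus of horse 4, the sample where the type I chains were highest, so they could not show that height. Col5a3, another type V chain, had gluteus ratios of -0.089, 0.027, -0.31 and 0.039 in horses 1, 2, 3 and 5, and, in longissimus, 0.40, -0.37, -0.16, 1.62 and 0.11 in horses 1 to 5. Its 1 high value was longissimus of horse 4, the sample with the widest spread of all features, and its longissimus mean of 0.32 was -0.0051 without that horse. Col11a1, a chain of the type XI collagen of thin fibrils, had gluteus ratios of -0.15, 0.16, -0.014, -0.70 and -0.012 and, in longissimus, -0.10, 0.16, -0.12, 0.59 and 0.18. Horse 4 was lowest in gluteus and highest in longissimus. Col11a2, its partner chain, had 0.21, 0.18, 0.19 and -0.24 in gluteus of horses 1, 2, 3 and 5. In longissimus of the same horses it had -0.28, -0.066, 0.072 and 0.025, all within a narrow band. Col2a1, the main collagen chain of cartilage, had gluteus ratios of 0.23, -0.052, -0.29, 0.44 and -0.21 and, in longissimus, 0.51, -0.12, -0.35, -0.66 and -0.38. Col27a1, a fibrillar chain also best known from cartilage, had -0.031, -0.20, 0.18, -0.040 and 0.032 in gluteus and -0.12, -0.14, 0.14, -0.41 and 0.14 in longissimus. None of these 5 genes had 1 sign in all horses of a muscle, and their adjusted p was 1 in gluteus and at least 0.83 in longissimus (limma).

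Gluteus of horse 4 was the sample in which matrix genes reached the highest ratios. There 11 of 39 measured matrix symbols (28.2%) were above a log2 ratio of 1, against 1.85% of the 8760 features measured in that sample. The 11 were Col1a1, COL1A1, Col1a2, Col3a1, Col5a1, FN1, Lum, LUM, Sparc, Thbs4 and Vcan, where a name in capitals is a separate probe of the same gene that only the sparse arrays measured. They were picked by their value in this sample, so their height there is a description with no test. Both dye orientations gave it: the 8 of them also present on dense arrays lay between 1.46 and 3.88 on the Cy3 array and between 0.83 and 4.06 on the Cy5 array. Over all matrix probes these 2 arrays correlated at 0.83. The second type I probe, COL1A1, read 2.36 there and -0.013 in gluteus of horse 5. In longissimus of horse 4, Col1a2 read -0.29 and Col1a1 -0.13, and the symbols of the 11 with a value there had a median of 0.090.

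The 8 genes present on dense arrays (Col1a1, Col1a2, Col3a1, Col5a1, Lum, Sparc, Thbs4 and Vcan) were all below the pool in gluteus of horses 2 and 3, with medians of -0.76 and -0.56. The low values came from 1 array of each pair. On the Cy3 array of horse 2 the 8 lay between -3.33 and -0.20 and on its Cy5 array between -0.21 and 0.36. In horse 3 it was the Cy5 array that was low, from -3.07 to -0.42, and its Cy3 array lay between -0.36 and 0.035. These 2 low arrays are the ones that correlated with each other across horses. Without gluteus of horses 2 and 3, the gluteus mean of Col1a2 was 1.20, that of Col1a1 0.59 and that of Col5a1 0.63. Without gluteus of horse 4 the same means were -0.51, -0.26 and -0.37. The sign of each therefore rested on which horses were counted, and no matrix gene passed the adjusted threshold in either version.

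**Figure D2:**
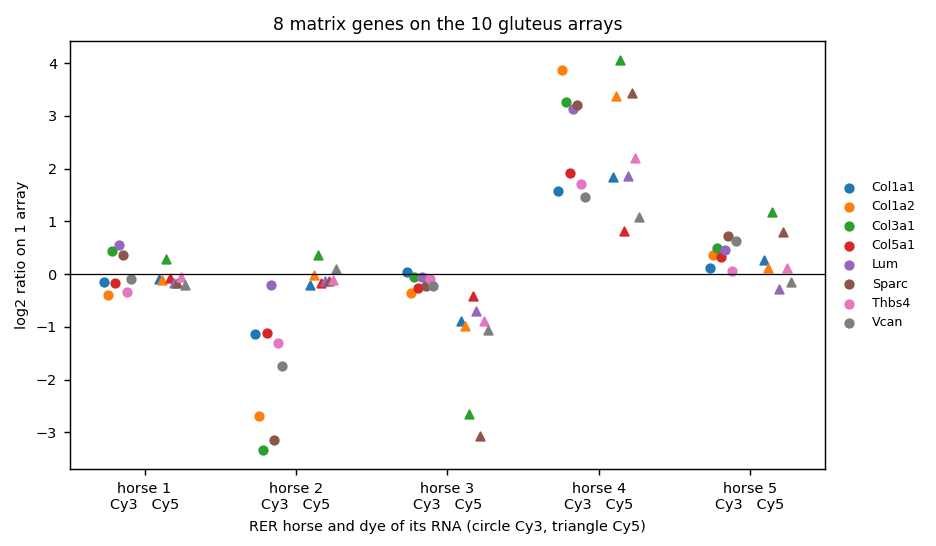
Log2 ratio of RER over control pool on each of the 10 gluteus arrays (circles, RER sample in Cy3; triangles, RER sample in Cy5) for the 8 matrix genes above 1 in gluteus of horse 4 that dense arrays also measured. Both arrays of horse 4 are high, while in horses 2 and 3 only 1 array of each pair is low.

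Single matrix genes past 2-fold were rarer elsewhere, and each sample was read against its own share of features. In gluteus, horse 2 had 1 of 59 matrix symbols above 1 (Col8a2; 1.69% against 1.29% of features) and 6 of 59 below -1 (10.2% against 2.08%). Those 6 were Col17a1, Col1a2, Col3a1, Fbn2, Lamc3 and Sparc. Horse 3 had 0 of 67 above (background 0.0981%) and Col3a1 and Sparc, 2 of 67, below (2.99% against 0.379%). Horse 4 had 1 of 39 below, Thbs3 (2.56% against 2.39%). Horse 1 had 0 of 66 above (background 0.301%) and 1 of 66 below, Col9a3 (1.52% against 0.472%). Horse 5 had 0 of 51 in either direction (backgrounds 0.331% above and 1.32% below).

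In longissimus the samples with most such genes were the widest overall. Horse 4 had 3 of 36 matrix symbols above 1, namely Col5a3, Fbn1 and LUM (8.33% against 7.16% of features), and 5 of 36 below -1 (13.9% against 10.4%). The 5 were Col4a6, HSPG2, Lama5, Lamb3 and Thbs3, of which 4 belong to the basement membrane. Muscle fibre genes were also spread widely there, and more of them lay far below the pool. Of 11 measured 5 were above and 6 below the pool, and 5 of the 11 were below -1. The median of the 11 was -0.52, with values from -5.44 for Tnnc2 (fast troponin C) to 0.55 for Des (desmin). Horse 1 had 1 of 65 above, Nid2 (1.54% against 2.5%), and 5 of 65 below, Col14a1, Col17a1, Col4a4, Col4a6 and Ogn (7.69% against 2.87%). Horse 5 had 1 of 48 above, LUM (2.08% against 0.176%), and 0 of 48 below (background 0.886%). Horses 2 and 3 had none, with 65 and 45 symbols measured and backgrounds of 0.319% above and 0.301% below in horse 2, and 0.234% and 1.22% in horse 3.

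Some genes outside the matrix were also extreme in gluteus of horses 2, 3 and 4. Vim, the intermediate filament of fibroblasts and other mesenchymal cells, had gluteus ratios of -0.18, -1.97, -1.26, 2.68 and -0.24 in horses 1 to 5. Tyrobp, a signalling adaptor of macrophages and other myeloid cells, had -0.17, -1.38, -0.998, 1.44 and 0.070. Horses 2 and 3 were lowest and horse 4 highest for both genes, which were chosen after their values were seen. Without horses 2 and 3 the gluteus means were 0.75 (Vim) and 0.45 (Tyrobp), and without horse 4 they were -0.91 and -0.62. The other 3 tested macrophage markers were mixed. Cd68 read -0.32, -0.16 and 0.31 in gluteus of horses 2, 3 and 4, with the signs of Tyrobp but smaller. Cd14 read 0.17, -0.0053 and -0.42 there, and Fcer1g 0.22, 0.14 and 0.16. The macrophage medians by horse, which include Tyrobp, were 0.012, -0.075, -0.083, 0.23 and -0.062, lowest in horses 2 and 3 and highest in horse 4. Thy1, a surface marker of fibroblasts, had gluteus ratios of 0.21, 0.26, 0.22, 2.44 and 1.99, high in horses 4 and 5 but not low in horses 2 and 3. In longissimus Thy1 read 0.031, -0.30, 2.36, 0.17 and -0.15, so horse 3 was as high there. Of 13 fibroblast and fibro-adipogenic markers on the array 9 were tested and 0 called (limma). In gluteus Thy1 alone, 1 of 9, passed an unadjusted p under 0.05 (0.0359, limma), against 1.84% of all features. The medians of the 9 tested markers in gluteus were -0.18, -0.11, -0.24, 0.46 and -0.056 in horses 1 to 5. The 61 tested cytosolic ribosomal protein genes had medians of -0.24, -0.41, -0.44, 0.46 and 0.25 in the same horses. Muscle fibre genes had medians of -0.34, 0.068, 0.25, -0.40 and 0.063. In gluteus the ribosomal medians were below 0 in the 3 horses with dense arrays and above 0 in the 2 with sparse arrays, and so were the fibrillar medians. The other marker lists gave 0 called genes: 0 of 5 tested endothelial, 4 macrophage, 3 smooth muscle and pericyte, 3 adipocyte and 4 nerve genes. The medians of these 5 lists in gluteus of horse 4 were 0.25, 0.23, -0.24, -0.20 and 0.23 in that order, and 0 of 4 tendon and fascia markers could be tested. The part of other cell types, array group and the unlike pairs in the collagen values was not tested. In RNA of a whole biopsy, more or fewer cells of a type and more or less RNA per cell cannot be told apart.

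**Figure D3:**
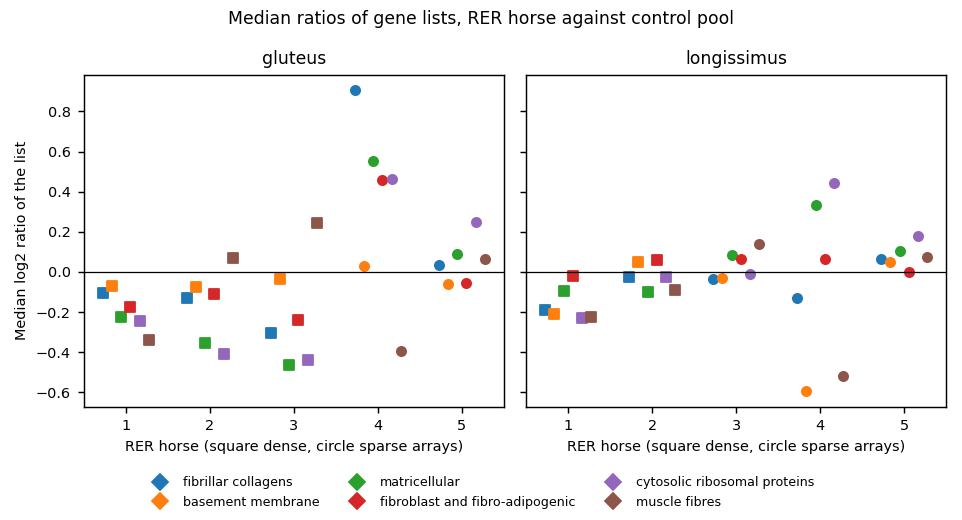
Median log2 ratio of RER over control pool for 3 groups of matrix genes, fibroblast markers, ribosomal protein genes and muscle fibre genes in each RER horse (squares, dense arrays; circles, sparse arrays), gluteus left and longissimus right. In gluteus of horse 4 the fibrillar median is 0.91 while the basement membrane median is 0.031. Each median covers only tested genes with a value in that sample, and Col5a3, Col11a2, Col4a1 and Lamb2 have none there.

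The median of the basement membrane genes varied less among gluteus samples than that of the fibrillar collagens, with an SD between horses of 0.044 against 0.48. Without horse 4 these SDs were 0.018 and 0.14. In longissimus the order was the reverse, 0.27 for the basement membrane against 0.098, and 0.12 against 0.11 without horse 4. Of 18 symbols 11 were tested, and their gluteus medians by horse were -0.072, -0.077, -0.036, 0.031 and -0.059. Medians by horse, here and for the fibrillar collagens, took in only genes with a value in that sample. In gluteus of horse 4, Col4a1, Lamb2, Col5a3 and Col11a2 had none, so the medians compared cover different genes. In gluteus 1 of the 11 was above and 10 below the pool, with a median of -0.037. Over all features tested, 5483 of 10176 were below it in gluteus. In longissimus 3 of the 11 were above and 8 below, with a median of -0.043, and 5187 of 10176 features were below. There the median by horse was -0.21, 0.050, -0.030, -0.60 and 0.052, lowest in horse 4.

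Type IV collagen forms the network of the sheet, and its chains gave the lowest unadjusted p-values of all matrix genes. Col4a1, one of the 2 chains found in nearly every basement membrane, had gluteus ratios of 0.0074, -0.49, -0.56 and -0.059 in horses 1, 2, 3 and 5. Its longissimus ratios were 0.23, -0.0064, 0.32, 0.29 and 0.099 in horses 1 to 5. Horses 2 and 3 were below the pool in gluteus, and 4 of 5 horses were above it in longissimus. Its gluteus mean of -0.28 ± 0.29 (SD, n = 4) had an adjusted p of 1 (limma), and the unadjusted p was 0.0336. In longissimus the mean was 0.19 ± 0.14 (SD, n = 5) and limma gave an adjusted p of 0.83. Without gluteus of horses 2 and 3 the gluteus mean was -0.026. The dyes gave opposite signs, with gluteus means of 0.17 on Cy3 arrays and -0.50 on Cy5 arrays, and longissimus means of 0.41 and -0.035. Col4a2, its partner chain, had 0.11, -0.074, -0.036, -0.010 and -0.18 in gluteus and 0.21, -0.16, -0.36, 0.40 and -0.21 in longissimus. It did not follow Col4a1: its means were -0.037 and -0.023.

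Col4a6, a chain of more restricted basement membranes, had longissimus ratios of -1.15, 0.050, -0.48, -1.17 and -0.11. Horses 1 and 4 were below -1, horses 3 and 5 less far below 0, and horse 2 just above it. The longissimus mean was -0.57, with an SD of 0.57 between 5 horses (adjusted p = 0.83, limma), and the unadjusted p was 0.0104. In gluteus Col4a6 had -0.047, -0.39, -0.30, 0.38 and -0.22. Its gluteus mean of -0.11 ± 0.31 (SD, n = 5) had an adjusted p of 1 (limma). Leaving out any 1 horse kept the longissimus mean between -0.73 and -0.42, and it was -0.25 when the Cy3 array of each pair correlating below 0 had its sign turned.

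Laminins are the cell-facing scaffold of the sheet, each made of an alpha, a beta and a gamma chain. Lamb3, a beta chain best known from epithelia, had gluteus ratios of 0.21, 0.087, 0.15, 0.031 and -0.081 and, in longissimus, -0.21, 0.16, -0.063, -1.11 and -0.51. Horses 4 and 5 were lowest in longissimus, and gluteus lay between -0.081 and 0.21. In longissimus the mean was -0.35 ± 0.49 (SD, n = 5) and limma gave an adjusted p of 0.83, and the unadjusted p was 0.039. Without horse 4 that mean was -0.16. Lama5, an alpha chain common in adult vessels and epithelia, had -0.33, 0.14, 0.37, -0.33 and -0.051 in gluteus and -0.45, -0.12, 0.50, -2.11 and 0.25 in longissimus. The 1 value past 2-fold was longissimus of horse 4, and the longissimus mean of -0.39 was 0.042 without that horse. Lamc1, the gamma chain of most laminins, had -0.13, -0.57, -0.41, 0.61 and 0.035 in gluteus and -0.32, 0.33, -0.086, 0.84 and 0.14 in longissimus. It ran with the collagens in gluteus, lowest in horses 2 and 3 and highest in horse 4. Its gluteus mean of -0.094 was 0.17 without horses 2 and 3, and its longissimus mean of 0.18 was 0.016 without horse 4.

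The remaining laminin chains were close to the pool apart from single values. Lama1, an alpha chain mainly of embryonic tissue, had gluteus ratios of 0.0084, 0.13, 0.0029, -0.091 and -0.14. In longissimus it had -0.069, 0.26, -0.030, -0.94 and 0.052, low in horse 4, and a mean of -0.14 that was 0.054 without it. Lama3, an alpha chain best known from epithelia, had gluteus ratios of -0.080, -0.077, -0.17, 0.19 and -0.041. In longissimus of horses 1, 2, 3 and 5 it had -0.55, 0.045, 0.017 and -0.079. Lamb2, the beta chain concentrated at the neuromuscular junction, had gluteus ratios of -0.093, 0.076, -0.011 and -0.11 in horses 1, 2, 3 and 5 and, in longissimus, -0.25, 0.057, -0.020 and 0.14 in the same horses. Each of these 3 genes had horses on both sides of 0 in each muscle, and their adjusted p was 1 in gluteus and at least 0.83 in longissimus (limma).

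Among the linkers of the sheet the tested genes had means close to the pool. Nid1, nidogen 1, which joins laminin to type IV collagen, had gluteus ratios of -0.072, -0.13, -0.12, -0.16 and -0.038. It was the only tested matrix gene below the pool in every gluteus sample, where 4.23% of all tested features were, and by little. The gluteus mean was -0.10, with an SD of 0.049 between 5 horses (adjusted p = 1, limma). In longissimus of horses 1, 2, 3 and 5 Nid1 lay between -0.14 and 0.021. Hspg2, perlecan, a large heparan sulfate proteoglycan of the sheet, had -0.24, -0.092, -0.036, 0.24 and 0.017 in gluteus and 0.18, 0.16, 0.25, -0.26 and 0.37 in longissimus. It was above the pool in 4 of 5 longissimus samples. Its longissimus mean of 0.14 ± 0.24 (SD, n = 5) had an adjusted p of 0.83 (limma). The probe written HSPG2 read -1.61 in longissimus of horse 4, where Hspg2 read -0.26, so the 2 probes gave unlike sizes. Nid2, the other nidogen, was not tested and read 0.19, 0.78 and 0.076 in gluteus of horses 1, 2 and 3, and 1.002 and -0.074 in longissimus of horses 1 and 2.

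**Figure D4:**
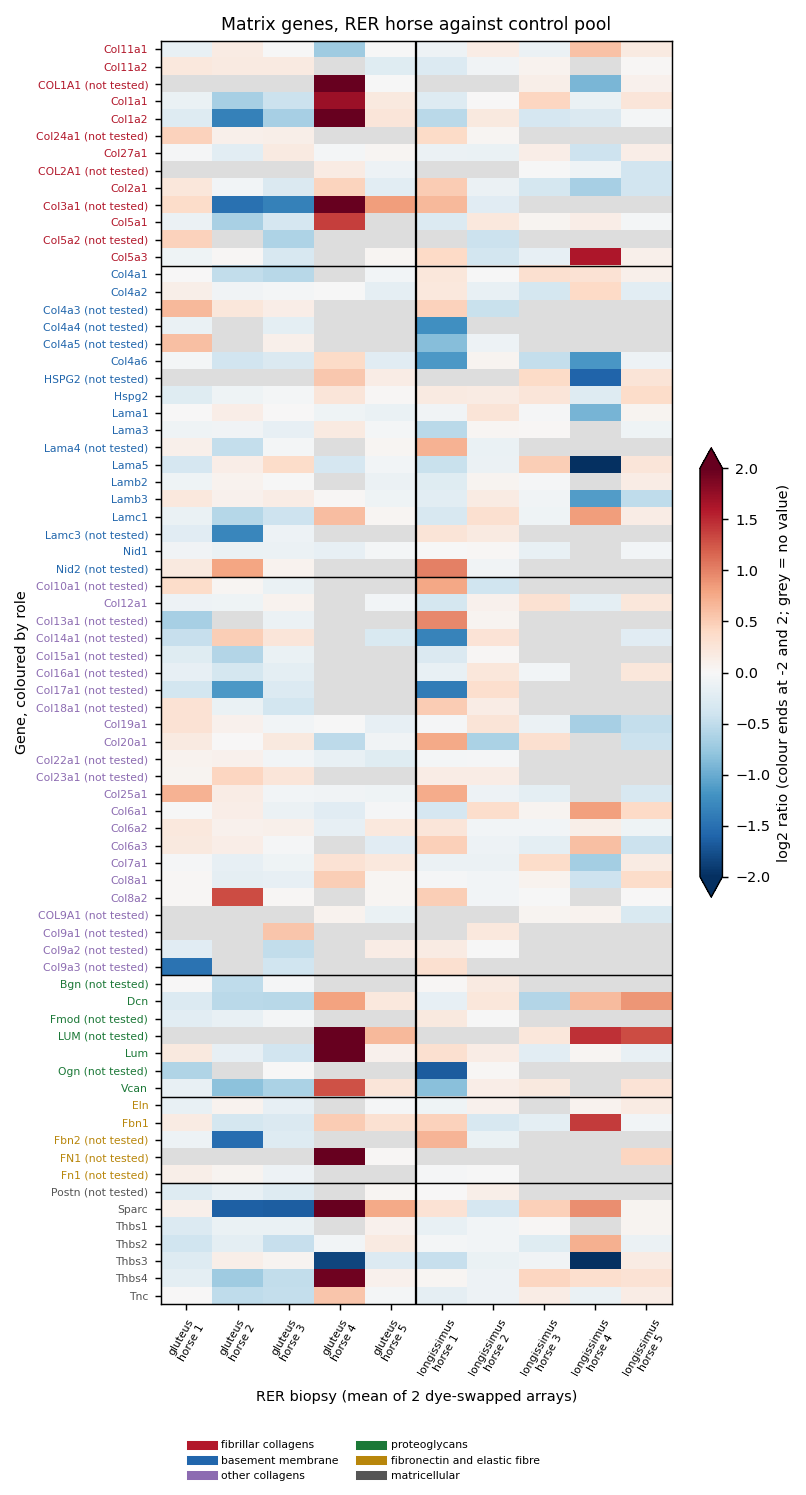
Log2 ratio of RER over control pool for every matrix symbol (lines, grouped and coloured by role) in each RER biopsy (columns; gluteus left, longissimus right), with red above and blue below the pool and grey for no value. The reds of the fibrillar collagens, lumican and Sparc gather in gluteus of horse 4, and the sparse arrays leave many symbols without a value.

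Other collagens, which include the network, beaded-filament and fibril-associated types, had tested means near the pool. Of 23 symbols 10 were tested, and 7 were above and 3 below it in each muscle, with medians of 0.036 in gluteus and 0.023 in longissimus. Col6a1, a chain of the type VI collagen filaments around muscle fibres, had longissimus ratios of -0.34, 0.35, 0.050, 0.81 and 0.39. It was above the pool in 4 of 5 horses there, and its gluteus ratios were -0.015, 0.13, -0.11, -0.23 and -0.022. In longissimus the mean was 0.25 ± 0.43 (SD, n = 5) and limma gave an adjusted p of 0.83. That mean was 0.11 without horse 4, 0.63 on Cy3 arrays and -0.12 on Cy5 arrays. Its partner chains had longissimus means of 0.032 (Col6a2) and 0.069 (Col6a3). Col19a1, a fibril-associated collagen, had longissimus ratios of -0.020, 0.26, -0.11, -0.66 and -0.47 and gluteus ratios of 0.29, 0.091, -0.061, -0.0065 and -0.17. Horses 4 and 5 were lowest in longissimus. The longissimus mean was -0.20, with an SD of 0.37 between 5 horses (adjusted p = 0.83, limma). Without horse 4 it was -0.087. Col8a2, a network-forming chain, had 0.017, 1.31, 0.018 and 0.040 in gluteus of horses 1, 2, 3 and 5. In longissimus of those horses it had 0.50, -0.062, -0.0074 and 0.014. Its gluteus mean of 0.35 rested on horse 2, whose arrays correlated below 0, and was 0.028 without horses 2 and 3. It was the only tested matrix gene above the pool in every gluteus sample with a value, as were 5.5% of tested features. In longissimus no tested matrix gene had 1 sign in every horse, against 1.96% of features above and 3% below.

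Among the small and large matrix proteoglycans, 3 of 7 symbols were tested. Lum, lumican, which binds collagen fibrils and spaces them, had gluteus ratios of 0.19, -0.16, -0.38, 2.50 and 0.088. Horse 4 stood alone. Its gluteus mean of 0.45 ± 1.17 (SD, n = 5) had an adjusted p of 1 (limma). Without gluteus of horse 4 the mean was -0.066, and without horses 2 and 3 0.93. In longissimus Lum had 0.32, 0.15, -0.21, 0.041 and -0.14. The probe written LUM read 2.96 in gluteus of horse 4 and 0.65 in horse 5, and 0.23, 1.46 and 1.31 in longissimus of horses 3, 4 and 5. The 2 lumican probes thus both stood high in gluteus of horse 4, but only LUM was past 2-fold in longissimus.

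Dcn, decorin, a small proteoglycan that coats collagen fibrils and binds TGF-beta, had gluteus ratios of -0.28, -0.54, -0.56, 0.80 and 0.21 and, in longissimus, -0.16, 0.23, -0.58, 0.64 and 0.88. Horses 4 and 5 were highest in both muscles. In longissimus the mean was 0.20 ± 0.59 (SD, n = 5) and limma gave an adjusted p of 0.86. It was 0.091 without horse 4, and 0.49 on Cy3 against -0.090 on Cy5 arrays. Its gluteus mean of -0.073 was 0.25 without horses 2 and 3. Vcan, versican, a large proteoglycan of loose and provisional matrix, had -0.14, -0.82, -0.63, 1.27 and 0.24 in gluteus. In longissimus of horses 1, 2, 3 and 5 it had -0.83, 0.13, 0.20 and 0.27. Its gluteus order was that of the type I chains. The gluteus mean was -0.017, with an SD of 0.83 between 5 horses (adjusted p = 1, limma). Without horses 2 and 3 it was 0.46, and without horse 4 -0.34.

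Fibronectin and elastic fibre genes had 2 of 5 symbols tested. Fbn1, fibrillin 1, the main protein of microfibrils, had 0.16, -0.35, -0.29, 0.51 and 0.30 in gluteus and 0.46, -0.32, -0.19, 1.39 and -0.054 in longissimus. Horse 4 was highest in both muscles. Its longissimus mean of 0.26 ± 0.70 (SD, n = 5) had an adjusted p of 0.84 (limma). Without horse 4 that mean was -0.025. Eln, elastin, had gluteus ratios of -0.16, 0.072, -0.17 and -0.030 in horses 1, 2, 3 and 5. In longissimus of horses 1, 2, 4 and 5 it had -0.086, 0.082, 0.063 and 0.16. All these averages of 2 arrays lay between -0.17 and 0.16, but the dyes gave opposite signs for Eln. Its longissimus means were -0.43 on Cy3 and 0.48 on Cy5 arrays, and its gluteus means -0.11 and 0.090. Fibronectin, the adhesive glycoprotein of early matrix, was split by array group: FN1 read 2.99 and 0.021 in gluteus of horses 4 and 5 and 0.44 in longissimus of horse 5. Fn1 was measured on dense arrays only, and there lay between -0.11 and 0.12.

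Matricellular proteins modulate cells rather than build fibres, and 6 of 7 symbols were tested. Sparc, which binds collagen and is needed for its assembly, was chosen for description after its values were seen. Its gluteus ratios were 0.099, -1.63, -1.64, 3.32 and 0.76, low in horses 2 and 3 and high in horse 4. On single arrays it read -3.15 in Cy3 and -0.12 in Cy5 for horse 2, -0.22 and -3.07 for horse 3, and 3.20 and 3.43 for horse 4. Only in horse 4 did both dyes give the large value. In gluteus the mean was 0.18 ± 2.05 (SD, n = 5) and limma gave an adjusted p of 1. Its gluteus mean was 1.39 without horses 2 and 3 and -0.60 without horse 4. In longissimus Sparc had 0.29, -0.33, 0.48, 0.93 and 0.053. Thbs4, thrombospondin 4, a protein of muscle and tendon attachments, was chosen likewise, and had -0.19, -0.71, -0.49, 1.95 and 0.086 in gluteus. That mean of 0.13 was 0.61 without horses 2 and 3 and -0.33 without horse 4. In longissimus it had 0.034, -0.10, 0.43, 0.33 and 0.29, above the pool in 4 of 5 horses.

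Thbs3, thrombospondin 3, had gluteus ratios of -0.25, 0.12, 0.062, -1.84 and -0.28 and, in longissimus, -0.46, -0.13, -0.070, -2.20 and 0.17. Both samples of horse 4 were far below the pool, against the direction of Thbs4 in its gluteus. The longissimus mean was -0.54, with an SD of 0.95 between 5 horses (adjusted p = 0.83, limma). Without horse 4 it was -0.12, and the gluteus mean of -0.44 was -0.087. The dyes differed for Thbs3, with means of 0.16 on Cy3 and -1.03 on Cy5 arrays in gluteus, and -0.16 and -0.92 in longissimus. Thbs1 and Thbs2, thrombospondins that bind cell receptors and restrain vessel growth, were nearer the pool. Thbs2 had gluteus ratios of -0.39, -0.19, -0.46, -0.052 and 0.18 and, in longissimus, -0.038, -0.062, -0.24, 0.71 and -0.12. Thbs1 had -0.28, -0.13, -0.13 and 0.093 in gluteus of horses 1, 2, 3 and 5. In longissimus of those horses Thbs1 had -0.15, -0.062, 0.025 and 0.059. The adjusted p of both was 1 in gluteus and, in longissimus, 0.947 for Thbs1 and 0.95 for Thbs2 (limma). Without horse 4 the Thbs2 longissimus mean of 0.051 was -0.11. Tnc, tenascin C, a protein of injured and remodelling tissue, was read by 2 probes that disagreed. In gluteus 1 probe gave -0.030, -1.01, -1.01, 0.95 and -0.12 in horses 1 to 5, and the other 0.035, -0.0070, 0.073, 0.15 and 0.040.

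Of the 73 symbols, 33 could not be tested. Values on dense arrays only were found for 20 of them, and 6 (COL1A1, COL2A1, COL9A1, FN1, HSPG2 and LUM) were measured on sparse arrays only. Among the untested, Col3a1, LUM, FN1 and COL1A1 carried the largest ratios above the pool. Fbn2, the fibrillin of developing tissue, read -1.53 in gluteus of horse 2, and Lamc3, a laminin gamma chain, read -1.31 there. Each of these stood past 2-fold in 1 sample of a pair that correlated below 0. Of the 40 tested genes, the Cy3 and Cy5 means had opposite signs in 25 (62.5%) in each muscle, against 57.2% of all features in gluteus and 60.3% in longissimus.

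The 2 muscles of the RER horses were then compared with each other through their ratios. The gluteus minus longissimus difference was called for 0 of 40 matrix genes, with a background of 0% (limma, adjusted p under 0.05). At an unadjusted p under 0.05, 1 of 40 passed against a background of 1.82%. That gene was Col4a1, with a difference of -0.46 (SE 0.15, unadjusted p = 0.0119, limma, adjusted p = 1). The mean of both muscles, taken per horse, was called for 0 of 39 genes, with a background of 0% over 10063 features. At an unadjusted p under 0.05, 1 of 39 passed against a background of 1.9%. It was Col4a6, at -0.34 (SE 0.082, unadjusted p = 0.00418, limma, adjusted p = 0.999).

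Genes that process, bind or induce the matrix gave no calls either. Of 19 genes of collagen synthesis and crosslinking on the array 6 were tested, and 0 were called in either muscle (limma; 0 also at an unadjusted p under 0.05, as in the receptor and signalling lists that follow). Plod1, a lysyl hydroxylase of collagen, had gluteus ratios of 0.21, 0.0088, 0.014, 0.20 and 0.10, and was the 1 gene of this list above the pool in every gluteus sample. Of 29 matrix receptors 14 were tested and 0 called, with a gluteus median of 0.040 and a longissimus median of -0.0047. Itga7, the integrin alpha chain by which muscle fibres hold laminin, had 0.15, -0.80, -0.42, 1.76 and -0.035 in gluteus and, like Dag1 (dystroglycan, 1.36 in gluteus of horse 4), was chosen after its values were seen. Its low and high horses were those of the type I collagens, and its gluteus mean of 0.13 was 0.62 without horses 2 and 3 and -0.28 without horse 4. The tested receptors with a value in gluteus of horse 4 lay on both sides of the pool there, with a median of 0.094. Of 18 TGF-beta signalling genes, the main inducers of fibrillar collagen, 5 were tested and 0 called. Smad4, the shared transducer of that pathway, had gluteus ratios of -0.48, 0.19, 0.075, -0.34 and -0.55, with no shared direction.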

How the data were processed

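The authors deposited log2 ratios of the 2 channels for 24493 probes on 20 arrays. Their log2 scale follows from a lowest value of -6.6439, which is a ratio of 0.01. Per the labels, 5 µg of RNA were labelled per sample and dye-swapped results were averaged. Scanner, background correction, normalization and the filter that left blanks are not given in the sources used here.

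Each array was centred on its median, both arrays of a pair were averaged, and probes of a symbol were averaged, capitals and mouse-style symbols apart. A feature needed values from 4 or more of the 5 horses per muscle, which left 10176. Their ratios were compared with 0 in limma 3.58.1 (R 4.3.3), with all 10 biopsies in 1 fit, a mean per muscle and Benjamini-Hochberg adjustment over all features. The mean of both muscles used 1 value per horse. The fit was tested on simulated data. The labels put both muscles on the same animals, and gluteus and longissimus deviations of a horse from their means had correlations of 0.58 (horse 1), 0.304 (horse 2), -0.0976 (horse 3), 0.0206 (horse 4) and -0.0024 (horse 5).

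Values are given per horse for every tested fibrillar and basement membrane gene and for the 3 genes with the smallest p in each other role; others named were chosen after their values were seen. Members and lists were chosen with earlier results of these data known. The number of arrays limits the precision. Intervals from each muscle alone were added after seeing the data. No probe sequence was used.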

Additional observations from a re-analysis of the deposited data

Results flagged for a closer look

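In groups of 4 or 5 horses, the gap between the most extreme horse and its nearest neighbour was set against the whole range of the group. Of 98 groups examined 10 had a horse that stood apart. The rule would flag about 1 in 20 independent groups of normally distributed values. These groups share the same biopsies, so their count cannot be judged against that rate. In gluteus of horse 4 the median of the fibrillar collagens was 0.91, against -0.30 to 0.032 in the other horses. Col5a3 and Col11a2 had no value in that sample and are not part of its median. Lum, lumican, read 2.50 there, against -0.38 to 0.19, and Thbs3, a thrombospondin, read -1.84, against -0.28 to 0.12.

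Longissimus of horse 4 stood apart for 3 genes. Thbs3 read -2.20, against -0.46 to 0.17 in the other horses, Lama1 read -0.94, against -0.069 to 0.26, and Thbs2 read 0.71, against -0.24 to -0.038. The remaining horses that stood apart were single values. Col8a2 read 1.31 in gluteus of horse 2, against 0.017 to 0.040 elsewhere, and 0.50 in longissimus of horse 1, against -0.062 to 0.014. Col11a2 read -0.24 in gluteus of horse 5, against 0.18 to 0.21, and Vcan read -0.83 in longissimus of horse 1, against 0.13 to 0.27. The pairs of arrays behind gluteus of horse 2 and longissimus of horse 1 correlated below 0.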

How the results depend on the processing

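No matrix gene was called in any of 97 alternative fits over the 4 comparisons, and the lowest adjusted p of a matrix gene was 0.132 (Thbs2 in longissimus, Cy5 arrays only, limma). With the horse as replicate block (consensus correlation 0.2008) the number of calls stayed 0 in each muscle and for their difference. The pairing changed no call there, and the mean of both muscles was not fitted with the block. Signs were not stable: of 40 tested genes, 3 in gluteus and 6 in longissimus kept 1 sign under all alternatives. The sign of 13 gluteus genes changed without horse 4, of 16 with Cy3 arrays only and of 15 with dense arrays only. Over all features, Cy3 arrays alone gave 2 calls in gluteus and 2 in longissimus, and Cy5 arrays alone gave 4, 92 and, for the mean of both muscles, 7. Sparse arrays alone gave 1 call each in gluteus, longissimus and the mean, and the array group as a term gave 5 in gluteus and 2 for the difference. The cause was not tested. Among alternatives chosen after seeing the data, leaving out gluteus of horses 2 and 3 gave 1 call for the mean, and leaving out the 4 pairs correlating below 0 gave 1 in gluteus, 1 in longissimus and 1 for the mean. Leaving out each horse in turn gave 0 calls throughout. Each alternative filtered its genes anew, so the genes behind a median could differ. The fibrillar median in longissimus was 0.1555 with the Cy3 arrays of the 4 pairs turned and 0.1319 with Cy5 arrays, against -0.0215. With sparse arrays it was -0.1585, but that median took in COL1A1 and COL2A1 and lacked Col5a1, Col5a3 and Col11a2. Over the 8 tested fibrillar genes the sparse arrays gave 0.0498. The basement membrane median in gluteus was -0.0886 with Cy3 arrays and 0.0237 with sparse arrays, against -0.0366. The sparse median took in HSPG2 and lacked Col4a1 and Lamb2. Over the 11 tested basement membrane genes it was -0.059 on sparse and -0.1069 on dense arrays. The basement membrane median was -0.0866 without gluteus of horse 4, and ranged over -0.0866 to -0.0251 when each horse was left out in turn. The fibrillar median in gluteus then ranged over -0.0815 to 0.0768, negative only without horse 4, and it was also negative, at -0.0807, on dense arrays only. Probe fit to horse RNA was not tested, and 1 pool per muscle leaves the spread of controls unmeasured.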
